A study of Mus musculus with 8 samples.

Results

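The 1031 chromatin loops described here were the longest ones carrying RNA polymerase II (Pol II) in KLF4-KO mouse embryonic stem cells. Each joined a pair of different anchors on 1 chromosome, was supported by 2 or more paired-end tags (PETs), and spanned 1 Mb or more between the anchor midpoints. The KO pool listed 118475 entries, of which 104844 joined different anchors. The 1031 loops were 3.33% of the 30928 KO loops of 2 or more PETs at any span (exact binomial 95% interval 3.14 to 3.54). The loops were chosen by their KO PET count and span, so both are given below as a description.

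The study compared E14 cells, an embryonic stem cell line, with Klf4 knocked out (KLF4-KO) and unmodified (WT), by RNA-seq and by Pol II HiChIP. HiChIP ligates DNA ends that lie close together in fixed nuclei, pulls down fragments bound by 1 protein and sequences the joined ends as PETs. Per the labels each assay had 2 biological replicates per genotype, and the deposited loop counts are 1 pool for KO and 1 for WT. Both genotypes were kept on gelatin with 15% serum, and the labels describe a medium with 10 ng/mL LIF, 1 µM PD0325901 (a MEK inhibitor) and 3 µM CHIR99021 (a GSK inhibitor) beside another with 1000 U/mL LIF. The sources used here do not say whether the KO cells were 1 clone.

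Pol II sits at active promoters and enhancers, and loops between its sites bring such elements together in the nucleus. Most promoter contacts stay within a topological domain, well under 1 Mb. Contacts over megabases join sites in different domains, and in embryonic stem cells they are known between clusters of active genes such as the histone genes, between Polycomb-bound genes and between pluripotency genes. KLF4 is a zinc finger factor of the naive pluripotency network that binds GC-rich DNA.

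The KO pool held 401726 PETs, 236805 of them between different anchors, and the WT pool held 35189 PETs with 23586 between anchors, so KO was 11.4-fold deeper. With 1 pool per genotype no HiChIP difference could be tested, and every interval on PETs or loops covers counting error. RNA libraries had 8287497 and 8448519 gene counts in KO, against 9020599 and 9762190 in WT. Klf4 had 0 counts in both KO libraries, against 2882 and 2421 in the WT libraries. The 7 embryonic stem cell markers summed to 4655 and 4712 CPM (counts scaled to library size) in KO, against 4077 and 4768 CPM in WT. The 7 feeder fibroblast markers summed to 10.5 and 12.2 CPM in KO against 6.14 and 6.29 CPM in WT, with Postn and Lum at 0 in every library. The 5 neural markers summed to 33.7 and 54.8 CPM in KO against 25.4 and 25.5 CPM in WT, and the 5 primitive endoderm markers to 5.67 and 8.84 CPM in KO against 6.25 and 7.92 CPM in WT. Single markers moved within these sums. Pax6 had 6.57 and 3.07 CPM in KO, against 0.106 and 0 CPM in WT (edgeR FDR 0.00968), Map2 had 8.12 and 3.78 CPM in KO, against 1.06 and 0.434 CPM in WT (FDR 0.0303), and Gata6 had 2.99 and 2.83 CPM in KO, against 0.424 and 0.326 CPM in WT (FDR 0.0264). Of the other neural markers, Sox1 went the other way, with 4.54 and 4.13 CPM in KO, against 6.67 and 6.08 CPM in WT (FDR 0.446). Tubb3 had 35.2 and 22.7 CPM in KO, against 17.7 and 18.4 CPM in WT (FDR 0.235). Neurog1 had 0.358 and 0 CPM in KO, against 0 and 0.434 CPM in WT. Gata4 had 2.03 and 0.472 CPM in KO, against 3.92 and 5.21 CPM in WT (FDR 0.132). The part of such cells in the results below was not tested.

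The promoters nearest to the anchor midpoints are shown for the 3 strongest loops that had a listed gene start at each end, as examples of what lay at such anchors. An anchor is kilobases wide and can hold several starts, so the contact itself is not placed on these bases. All are RefSeq promoters of build GRCm38.p6 (the mm10 build), from 250 bases before to 50 bases after the gene start, written 5′ to 3′ on the gene's strand. The first pair belongs to the zinc finger genes Zfp987 (chr4:146097062-146097361, plus strand) and Zfp534 (chr4:147702582-147702881, minus strand), joined by 24 KO PETs over 1.60 Mb. Capitals mark every stretch of 20 or more bases that the promoters share.
Zfp987: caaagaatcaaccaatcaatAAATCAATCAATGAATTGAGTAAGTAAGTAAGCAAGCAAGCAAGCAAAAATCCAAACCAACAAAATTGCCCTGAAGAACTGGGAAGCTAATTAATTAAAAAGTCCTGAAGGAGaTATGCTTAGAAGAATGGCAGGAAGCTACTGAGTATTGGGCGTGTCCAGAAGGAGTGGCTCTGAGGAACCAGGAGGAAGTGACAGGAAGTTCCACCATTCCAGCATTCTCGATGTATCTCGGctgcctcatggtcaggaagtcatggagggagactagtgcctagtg
Zfp534: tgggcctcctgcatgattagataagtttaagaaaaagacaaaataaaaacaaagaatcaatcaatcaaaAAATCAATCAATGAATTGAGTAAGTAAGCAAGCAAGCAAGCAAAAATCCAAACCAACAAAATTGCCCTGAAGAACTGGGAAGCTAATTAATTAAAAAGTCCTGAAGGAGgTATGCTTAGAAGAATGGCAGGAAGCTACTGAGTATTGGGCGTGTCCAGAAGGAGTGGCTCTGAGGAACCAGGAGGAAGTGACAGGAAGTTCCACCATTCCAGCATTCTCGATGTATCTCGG
These promoters were near copies, with 97.3% identical bases over 255 aligned columns and a longest shared run of 121 bases.

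The second pair belongs to the predicted genes Gm40983 (chr13:65379184-65379483, plus strand) and Gm52033 (chr13:66714723-66715022, plus strand), joined by 14 KO PETs over 1.33 Mb. Capitals again mark shared stretches of 20 or more bases.
Gm40983: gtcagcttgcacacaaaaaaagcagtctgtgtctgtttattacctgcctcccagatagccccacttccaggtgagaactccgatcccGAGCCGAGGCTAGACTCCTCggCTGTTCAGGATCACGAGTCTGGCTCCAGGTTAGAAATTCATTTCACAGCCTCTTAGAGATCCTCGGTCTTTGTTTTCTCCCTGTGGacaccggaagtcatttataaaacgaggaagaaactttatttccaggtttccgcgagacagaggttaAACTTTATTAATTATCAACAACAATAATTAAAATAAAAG
Gm52033: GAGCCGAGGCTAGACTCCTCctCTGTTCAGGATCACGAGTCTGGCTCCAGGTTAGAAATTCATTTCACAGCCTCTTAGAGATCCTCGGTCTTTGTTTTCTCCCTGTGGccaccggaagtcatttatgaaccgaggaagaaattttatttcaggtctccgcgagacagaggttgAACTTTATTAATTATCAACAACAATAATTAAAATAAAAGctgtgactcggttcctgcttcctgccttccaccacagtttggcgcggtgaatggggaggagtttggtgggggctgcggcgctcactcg
They matched at 95.8% of 213 aligned columns, with a longest shared run of 86 bases.

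The third pair belongs to the histone genes H3c10 (chr13:21717378-21717677, plus strand) and H2ac4 (chr13:23750838-23751137, plus strand), joined by 16 KO PETs over 2.03 Mb. Capitals mark a YY1 match (GCCATNTT) and TATA boxes (TATAAA).
H3c10: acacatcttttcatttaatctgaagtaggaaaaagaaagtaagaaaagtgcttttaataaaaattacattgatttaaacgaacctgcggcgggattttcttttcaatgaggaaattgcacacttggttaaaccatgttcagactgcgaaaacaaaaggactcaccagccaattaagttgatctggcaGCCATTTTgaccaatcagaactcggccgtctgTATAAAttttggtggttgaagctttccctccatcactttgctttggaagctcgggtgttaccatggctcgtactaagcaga
H2ac4: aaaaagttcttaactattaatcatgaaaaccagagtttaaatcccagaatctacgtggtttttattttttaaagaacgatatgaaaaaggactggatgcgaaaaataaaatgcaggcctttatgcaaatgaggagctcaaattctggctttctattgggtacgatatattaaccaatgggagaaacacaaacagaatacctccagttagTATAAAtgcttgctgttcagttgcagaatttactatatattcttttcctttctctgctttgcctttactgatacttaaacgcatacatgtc
These promoters shared no stretch of 20 bases, and the other histone genes of both anchors were not compared. The TATA box lay 31 bases before the start of H3c10 and 41 before the start of H2ac4.

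Long loops were mostly thin. The KO file listed 36746 anchor pairs at 1 Mb or more, of which 35715 had 1 PET and 2.81% had 2 or more (2.64 to 2.98). The 1031 loops held 2497 PETs, 1.05% of all PETs between anchors. Exactly 2 PETs supported 865 loops (83.9%), 166 had 3 or more, 28 had 5 or more, and 10 had 10 or more. The median span was 2.01 Mb, with quartiles at 1.30 and 6.70 Mb, and the longest loop reached 85.2 Mb. Loops of 5 or more PETs reached at most 4.804 Mb, whereas 100 loops of fewer PETs spanned 20 Mb or more. Just outside the limit of 1 Mb, 124 loops spanned 0.9 to 1 Mb, and just inside it 103 spanned 1 to 1.1 Mb.

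**Figure D1:**
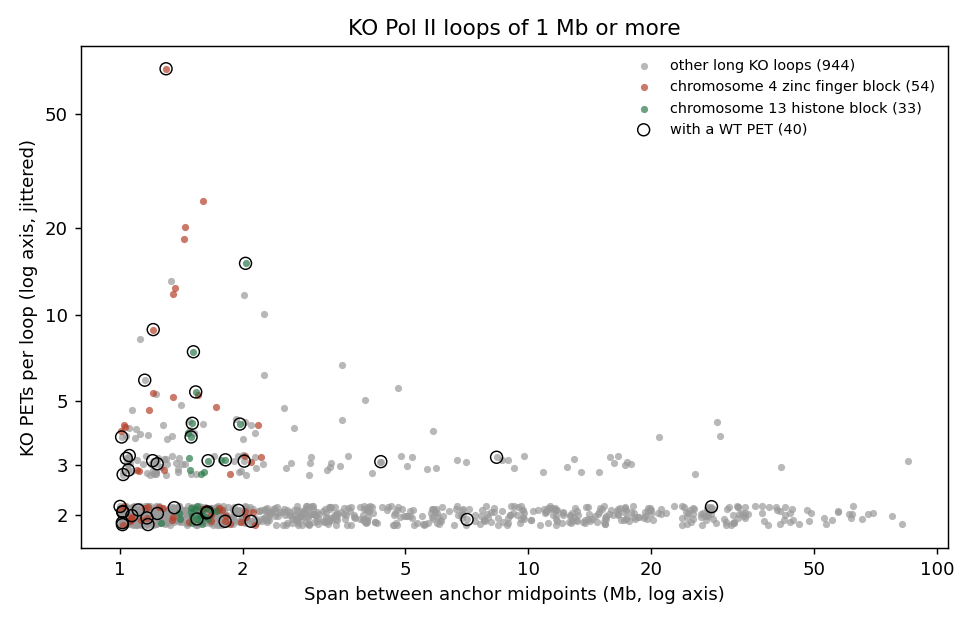
Span (Mb, log axis) against KO PETs per loop (log axis, jittered for visibility) for the 1031 long KO loops, one point a loop, with the zinc finger block, the histone block and the 40 loops that had a WT PET marked. Loops of 10 or more PETs lie near the lower end of the span axis, and most points beyond 5 Mb have 2 PETs.

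The share of listed pairs with 2 or more PETs decreased with span. It was 7.58% at 1 to 2 Mb (6.96 to 8.23), 3.56% at 2 to 5 Mb, 1.82% at 5 to 10 Mb, 1.57% at 10 to 20 Mb, 0.978% at 20 to 50 Mb and 0.522% beyond 50 Mb (0.292 to 0.859).

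The WT pool was not used to choose the loops. Of the 1031 loops, 40 (3.88%, 2.79 to 5.25) had both anchors overlapped by both anchors of a WT pair of at least 1 PET. The share was 12.7% for loops of 3 or more PETs and 21.4% for those of 5 or more (8.30 to 41.0, 6 of 28 loops), against 0.400% of long KO pairs with 1 PET. Shorter KO loops stood higher, at 10.5% for 20 kb to 1 Mb and 11.0% under 20 kb. Among loops of 5 or more PETs the values were close, 21.4% for long loops and 20.04% for loops of 20 kb to 1 Mb. Most of the 6 matched long loops lay in the zinc finger block and the histone block described below, so the 21.4% rests largely on these blocks. Without both blocks, an alternative added after the data were seen, 2.86% of the long loops had a WT PET. Of the 40 loops, 33 spanned 1 to 2 Mb, and none of 105 loops at 10 to 20 Mb had a WT PET. The WT anchors set a limit, since 390 of the 1031 loops had a WT anchor at both ends, and 10.3% of those 390 had a WT PET. Read from the other side, 20 of the 68 long WT loops (29.4%, 19.0 to 41.7) overlapped a KO loop of 2 or more PETs at both anchors. Thinned in expectation to the WT depth in all PETs, those within 1 anchor included, the KO pool would hold 16.4 long loops. The WT pool had 68. A thinning by between-anchor PETs was not run. PETs at 1 Mb or more made up 16.1% of between-anchor PETs in KO (15.99 to 16.3) and 21.5% in WT (20.96 to 22.0).

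**Figure D2:**
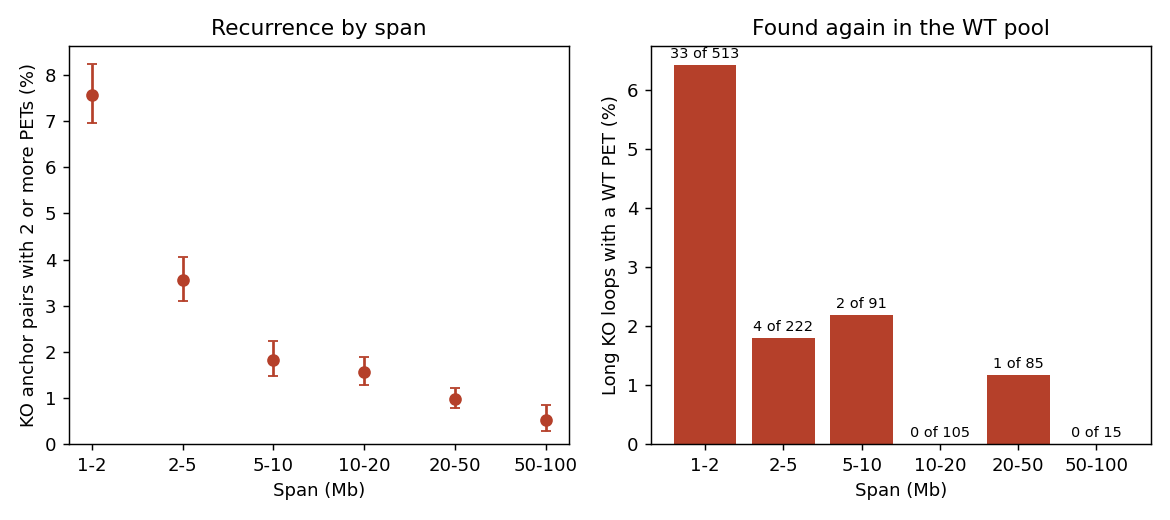
Left, percent of listed KO anchor pairs with 2 or more PETs by span in Mb, with exact binomial 95% intervals as bars. Right, percent of long KO loops with a WT PET by span, with counts above the bars. The left share is 7.58% at 1 to 2 Mb and 0.522% beyond 50 Mb, and the right panel has 33 of its 40 loops in the shortest span class.

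Long loops lay on every autosome. Chromosome 11 had 123, chromosome 2 had 107, chromosome 17 had 96, chromosome 4 had 87 and chromosome 7 had 85. Relative to all KO loops of a chromosome, the long ones were most frequent on chromosome 13 (6.83%), followed by chromosome 17 (4.81%) and chromosome 12 (4.59%). Of the 61 long loops on chromosome 13, 33 joined 1 pair of histone gene intervals and 10 lay around Gm40983 and Gm52033. Both groups are described below, so the share of chromosome 13 rests largely on them. Chromosome X, present once in these male cells, had 1 long loop among 225 loops (0.444%). In the WT pool, 23 of the 68 long loops were on chromosome 13.

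**Figure D3:**
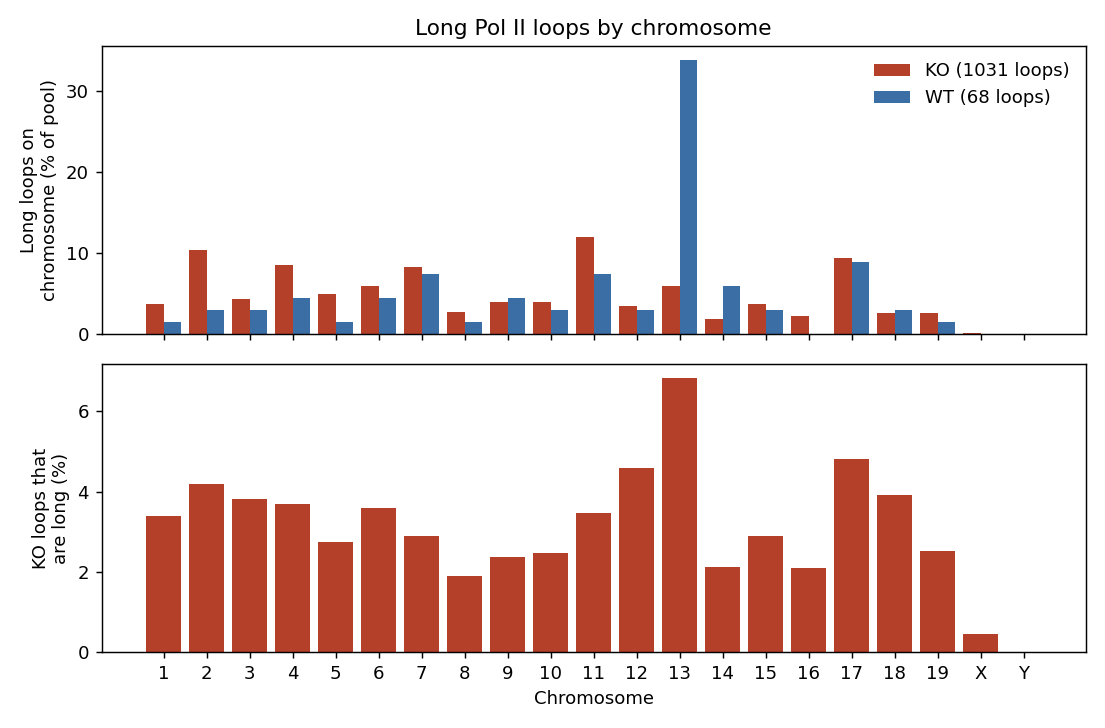
Upper panel, percent of each pool's long loops on each chromosome, KO (1031 loops) left of WT (68 loops). Lower panel, percent of each chromosome's KO loops that are long. Chromosome 13 is highest for WT and in the lower panel, at 6.83%, and X is near the floor. The histone block alone holds 33 of the 61 long KO loops of chromosome 13.

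Anchors of long loops were wide and rich in PETs. The 1385 anchors had a median width of 5202 bp, 66 PETs and 21 partners, against 3025 bp, 23 PETs and 11 partners for the 12399 anchors of loops under 1 Mb only. The loops were chosen by KO PETs, which favours anchors with more PETs, more partners and greater width, so these values are a description. A gene start lay within 2500 bases of 54.6% of them (51.9 to 57.2), against 46.3% of the anchors of shorter loops (45.4 to 47.2). Their greater width moves with this share, and its part was not tested. A start at both ends was found for 340 of 1005 long loops off chromosome 18 (33.8%), against 30.2% of loops of 20 kb to 1 Mb. The remaining long loops had a start at 1 end (45.2%) or at neither (20.995%).

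Zinc finger genes formed the strongest group. Loops whose anchors both lay within 500 kb of another loop's were joined into blocks, a grouping chosen after the data were seen, and 511 loops fell into 131 blocks while 520 stood alone. The block on chromosome 4 was the largest, with 54 loops and 296 PETs, 11.9% of all PETs in long loops. It joined an array between positions 145416175 and 146519913 with one between 146451828 and 147810801, which hold Zfp980, Zfp987, Zfp988, Zfp534, Zfp984, Zfp985, Zfp993 and Rex2. Most are KRAB-type zinc finger genes, a class of DNA-binding repressors that multiplied in rodents and silence transposable elements. The single strongest loop, of 73 PETs (exact Poisson interval 57.2 to 91.8), ran 1.30 Mb from the Zfp980 start (chr4:145668613-145683557) to an anchor over Zfp993 and Rex2 (chr4:146969941-146979770) and had 8 WT PETs. The loop between Zfp987 and Zfp534 had 24 PETs, and an anchor without a listed start (chr4:145861266-145875834) reached Zfp988 with 22 and 19 PETs and a further anchor with 13. None of these last 4 loops had a WT PET. All pairs of 1 Mb or more and any PET number between both arrays were also counted. The block held 159 PETs per 100000 between-anchor PETs in KO (144 to 176) and 102 in WT (65.2 to 151). Like the other blocks, it was drawn around loops chosen by their KO PETs, which favours the KO value. The chosen loops supplied 296 of the 377 KO PETs counted, so the KO and WT values are a description.

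Some of these contacts joined promoters that share sequence. Among the 340 long loops with a promoter at both ends, 16 (4.71%) joined promoters that share a stretch of 20 bases, against 0.794% of KO loops of 20 kb to 1 Mb. Among long loops of 5 or more PETs it was 5 of 15. Of the first promoter's 20-base words, the second held 65.1% for Zfp987 with Zfp534, 40.9% for Zfp987 with Zfp988 and 32.0% for Zfp980 with Rex2. It held 31.3% for Gm40983 with Gm52033 and 1.08% for Ppp1r10 with H2-M5. Over the 16 loops this share ran from 0.356% (Glo1 with H2-M5) to 88.6% (Gm40847 with Gm10476). The count of 16 thus mixes near copies with matches of few words, and several of its loops lay in the chromosome 4 block. The sources used here do not say how HiChIP reads with several alignments were treated. Contacts between near copies are therefore uncertain, and the part of sequence similarity in them was not tested. Anchors were compared by these promoters alone, those of histone genes included. In the histone block described below, H3c11 with H2ac4 shared 1.42% and H3c10 with H2ac10 shared 0.712%.

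Histone genes formed the second block. On chromosome 13, 33 loops with 103 PETs joined the interval from 21714498 to 22051853 with the interval from 23299113 to 23766291, which both hold replication-dependent histone genes. A histone gene start lay at both ends of 11 of the loops (54 PETs), at 1 end of 9 (21 PETs) and at neither end of 13 (28 PETs), and other starts in the block included Zfp184 and Abt1. Histone genes of this kind are transcribed in S phase in nuclear histone locus bodies. The strongest loop there (16 PETs, 9.15 to 26.0) joined the anchor of H3c10, H2ac13, H2bc13 and H2bc14 with the anchor of H1f1, H1f2, H3c2, H3c3, H2ac4, H2bc3, H4c1 and H4c2, and it overlapped WT pairs with 31 PETs. A further anchor over H2ac11, H2ac12, H2bc11, H2bc12 and H4c9 (chr13:22031704-22044879) had 11 long loops and 38 PETs, and 6 of them had a WT PET. Of its loops, the one to H2bc7 had 5 KO and 10 WT PETs, the one to H2ac10 had 4 KO and 10 WT PETs, and the one to H1f3 had 7 KO and 4 WT PETs. Across the block, the KO pool had 70.1 PETs per 100000 between-anchor PETs (59.8 to 81.6) and the WT pool had 488 (403 to 585). The intervals did not overlap, and with 1 pool per genotype a difference between pools and one between genotypes cannot be told apart. Of 91 histone genes with a listed start, 37 lay at a long-loop anchor (40.7%), against 833 of 17492 protein-coding genes (4.76%). All of the 37 but H2az1 lay in this block, and many share an anchor. They are therefore not 37 separate cases, and the share restates this block.

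Of the remaining blocks, the 8 largest had 9 to 15 loops each. The block of Gm40983 and Gm52033 on chromosome 13 had 10 loops and 42 PETs. Over all pairs of 1 Mb or more between its arrays, it had 49 PETs in KO and 2 in WT. Per 100000 between-anchor PETs this was 20.7 in KO (15.3 to 27.4) and 8.48 in WT (1.03 to 30.6), with overlapping intervals. The loops chosen by their KO PETs supplied 42 of the 49, which favours the KO value. A block of 15 loops and 50 PETs on chromosome 17 joined the interval of Pou5f1, the core pluripotency factor OCT4, and Tubb5, a beta tubulin, with the interval of Zfp57, a zinc finger protein that keeps imprints methylated, and Mog. A block of 9 loops and 19 PETs on chromosome 6 joined the Nanog, Phc1 and Apobec1 anchors with those of Cd9, Ncapd2, Spsb2 and Lrrc23 over 1.98 to 2.88 Mb.

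Loops outside blocks were longer and seldom met in WT. The 520 lone loops had a median span of 4.70 Mb and at most 5 PETs, and 8 of them (1.54%) had a WT PET. The 511 block loops had a median span of 1.52 Mb, and 32 of them (6.26%) had a WT PET. Of these 32, 9 lay in the histone block and 4 in the zinc finger block. The contrast moves with span too, since 33 of all 40 matched loops spanned 1 to 2 Mb, and the part of each was not tested. The longest of all long loops joined an anchor without a gene start to one over Cldn14 on chromosome 16, over 85.2 Mb with 3 PETs. The next joined Prmt1, an arginine methyltransferase, with Sephs2, a selenophosphate synthetase, on chromosome 7 over 82.3 Mb with 2 PETs. Others of 2 PETs joined Gpr1 and Zdbf2 with an anchor over Ppp1r15b (69.9 Mb) and Cyp20a1 with Zranb3 (67.8 Mb), both on chromosome 1. None of these had a WT PET.

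Some anchors were hubs. Of the 1385 anchors, 1056 had 1 long loop and 51 had 5 or more. The anchor of Zfp57 and H2-M5 (chr17:36966851-37015121) led with 20 long loops and 59 PETs over 1.01 to 42.4 Mb. Its strongest partner was the Tubb5 anchor, at 6 PETs and 1.15 Mb, which also had 1 WT PET. An anchor in Pigl, a gene of GPI anchor synthesis, had 13 loops and 31 PETs, and the anchor of Mkrn1, a RING finger ubiquitin ligase, had 13 loops and 29 PETs. The anchor in Platr29, a long noncoding RNA, had 11 loops and 26 PETs, and that of the transcription factor gene Sp1 had 9 loops and 23 PETs. The anchor spanning Sox15, Eif4a1 and Senp3 reached far, with 10 loops of 2 PETs each, 9 of them to one side and a median span of 27.8 Mb. These hubs were wide (7257 to 66180 bp) and had 104 to 1953 PETs in all. Long loops made up 1.05% to 3.45% of the PETs of 6 of the 8 hubs, 19.3% of those of the histone hub and 34.6% of those of the Gm52033 hub. Triangles, in which 3 anchors were joined by 3 long loops, numbered 7, of which 5 were on chromosome 2 and 2 on chromosome 17.

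**Figure D4:**
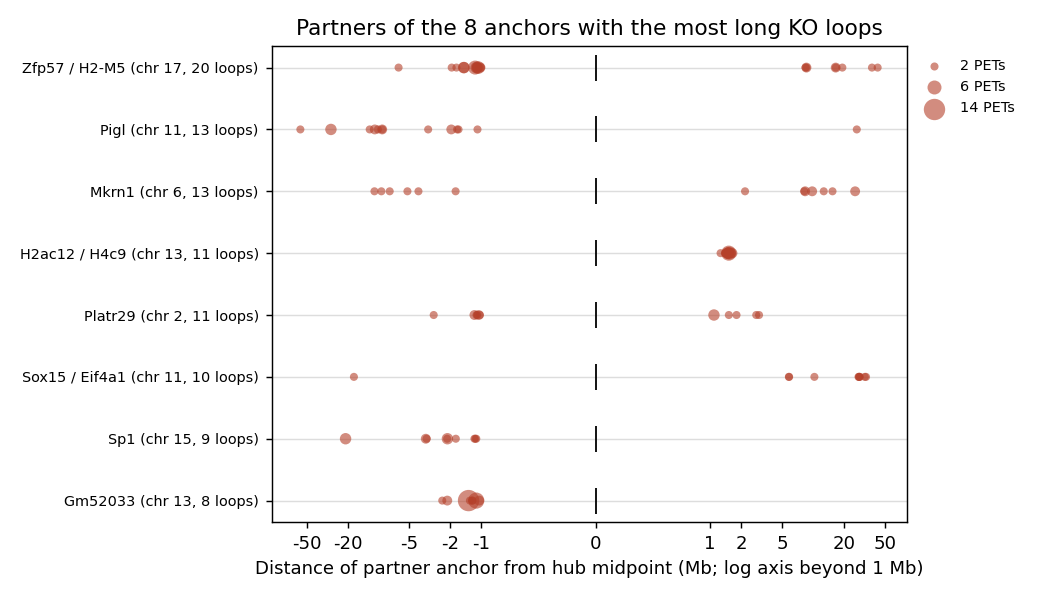
Distance of each partner anchor from the hub midpoint (Mb, linear within 1 Mb and log beyond) for the 8 anchors with the most long KO loops, with point area proportional to KO PETs. Partners of the histone hub sit between 1.26 and 1.65 Mb on one side, whereas those of Zfp57 and H2-M5 reach 42.4 Mb.

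Some pluripotency genes had a start at a long-loop anchor, and none of the listed developmental regulators did. Of 10 core pluripotency genes with a listed start, 5 were at a long-loop anchor (Pou5f1, Utf1, Tdgf1, Nodal and L1td1), as were 3 of 13 naive genes (Nanog, Zfp42 and Fgf4) and 1 of 13 formative genes (Dnmt3a). None of 50 developmental regulators of the Polycomb type and none of 24 early neural genes was, against 4.76% of all protein-coding genes. Those lists were thin in the KO file as a whole, with 9 of the 50 and 5 of the 24 at any anchor, against 46.6% of protein-coding genes and 9 of the 10 core genes. Of the 8158 protein-coding genes at any KO anchor, 833 were at a long-loop anchor. Among 9 and 5 genes a count of 0 therefore shows little. Of 17 architecture genes 1 was at a long-loop anchor, the cohesin subunit gene Stag1, and 16 were at any KO anchor. Of 10 genes of the two-cell-like state 0 were at any KO anchor, so none could be at a long-loop anchor. Genes with symbols starting Rpl or Rps counted 16 of 75, among them Rps6ka1, a kinase, and the ribosomal-like Rpl3l and Rpl7l1. Zinc finger genes by symbol counted 39 of 351, and olfactory and vomeronasal receptor genes 1 of 1267. At any KO anchor were 68 of the 75, 282 of the 351 and 6 of the 1267, so these counts also follow presence in the KO pool.

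Pou5f1 had 4 long loops and 14 PETs. With 4 PETs each they reached the anchor of BC051226 and Daxx, the anchor of Mog and that of Zfp57, and with 2 PETs an anchor over Bicral at 11.3 Mb. Nanog, a homeobox factor of naive cells, had 1 loop of 2 PETs to the anchor of Spsb2 over 2.096 Mb, with 1 WT PET. Dnmt3a, a de novo DNA methyltransferase, had 3 loops of 2 PETs, and Utf1, a chromatin-bound factor of stem cells, had 2. Tdgf1, a coreceptor of Nodal signalling, had 2, as did Fgf4, a growth factor that drives exit from the naive state. Nodal and L1td1 had 1 each, over 57.2 and 43.8 Mb.

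Motif content set these promoters near other KO anchors. All motifs were searched on both strands of the 300-base RefSeq promoters. The KLF motif GGGNGNGGC occurred in 37.1% of 1255 promoters at long-loop anchors, 41.9% of 10571 promoters at other KO anchors and 25.8% of all 32851 promoters. The CTCF core motif occurred in 2.95% of promoters at long-loop anchors, 3.05% at other KO anchors and 2.43% of all. The YY1 motif GCCATNTT occurred in 11.5% at long-loop anchors, 8.94% at other KO anchors and 6.05% of all. The TATA box TATAAA occurred in 8.13% at long-loop anchors, 6.27% at other KO anchors and 13.6% of all. Median GC content was 59.7% at long-loop anchors and 61.3% at other KO anchors, which moves with the GC-rich KLF motif.

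RNA-seq, which was not used to choose the loops, showed a share of changed genes near the background. Of 1028 genes with a start at a long-loop anchor, 829 passed the filter on low counts. Among these 30 (3.62%) were higher and 30 (3.62%) were lower in KO at an edgeR false discovery rate (FDR) of 0.05. Over all tested genes 8.3% were called, 2.96% as higher and 5.34% as lower, against 7.24% of the genes at long-loop anchors. Of 5472 tested genes at anchors of shorter loops only, 97 were higher and 199 lower in KO (5.41%). The median log2 fold change was 0.06 for genes at long-loop anchors, 0.01 for genes at shorter loops and -0.0015 for all tested genes. Genes at long-loop anchors were highly expressed, with a median of 6.06 on the log2(CPM + 1) scale in KO, against 5.45 at shorter loops and 4.41 for all genes. The counts moved with single libraries, and so did the share called over all tested genes. Without WT library 1 they were 64 higher and 56 lower (14.3%, against 15.5% of all genes), and without WT library 2 they were 31 and 45 (9.07%, against 9.54%). Without KO library B they were 21 and 15 (4.28%, against 6.14%), and without KO library F 15 and 20 (4.15%, against 6.19%). With no filter on low counts edgeR called 0 of these genes, and 2 of 27254 in all, with 4021 at an unadjusted p under 0.05, whereas DESeq2 on the filtered genes called 45 higher and 41 lower (10.4%, against 10.6% of all genes).

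Among the higher genes, Dnmt3a had 219 and 291 CPM in KO libraries B and F, against 55.2 and 40.3 CPM in WT libraries 1 and 2 (log2 fold change 2.42 ± 0.28 SE, FDR 0.00383). Utf1 had 368 and 368 CPM in KO, against 52.2 and 89.1 CPM in WT (2.38 ± 0.31, FDR 0.00520). Rarg, a retinoic acid receptor whose start joined an anchor over Tfcp2, had 205 and 234 CPM in KO, against 50.4 and 58.4 CPM in WT (2.01 ± 0.24, FDR 0.00407). The rule that chose the genes of this paragraph required KO libraries that do not overlap the WT libraries. Among genes with a mean of 2 CPM or more, the largest increase was that of Enpp3, an ectonucleotidase, with 27.6 and 38.0 CPM in KO and 5.51 and 3.69 CPM in WT (2.83 ± 0.37, FDR 0.00522). Halr1, a long noncoding RNA beside the Hoxa cluster, had 55.3 and 76.7 CPM in KO and 9.22 and 12.3 CPM in WT (2.62 ± 0.31, FDR 0.00390). Etfbkmt, Platr22, Prss50, B3gnt7 and Obsl1 rose by log2 fold changes between 1.75 (Obsl1) and 2.53 (Etfbkmt). The call of Platr22 (FDR 0.0497) was lost under DESeq2 (FDR 0.0593) and limma voom, with library totals, with a filter of 10 counts, and without KO library F or WT library 2.

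Among the lower genes, Elf3, an epithelial ETS factor, had 33.2 and 26.5 CPM in KO, against 138 and 203 CPM in WT (log2 fold change -2.51 ± 0.29 SE, FDR 0.00378). A4galt, which makes globotriaosylceramide, had 8.36 and 8.62 CPM in KO, against 40.9 and 56.6 CPM in WT (-2.52 ± 0.31, FDR 0.00417). Slc25a20, the mitochondrial carnitine-acylcarnitine carrier, had 40.9 and 49.3 CPM in KO, against 140 and 180 CPM in WT (-1.83 ± 0.26, FDR 0.00725). These genes too were chosen by a rule that required groups that do not overlap. The largest decrease was that of Aspa, an aspartoacylase, with 0.119 and 0.709 CPM in KO and 11.5 and 6.84 CPM in WT (-4.42 ± 0.71, FDR 0.0103). Sncg, Fam25c, Cd38, Ccdc141, Ptges and Zfp628 fell, with log2 fold changes between -2.87 (Sncg) and -1.88 (Zfp628). The calls of Ptges, a prostaglandin E synthase, and Ccdc141 were lost without KO library B, at FDR 0.0644 and 0.0691.

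**Figure D5:**
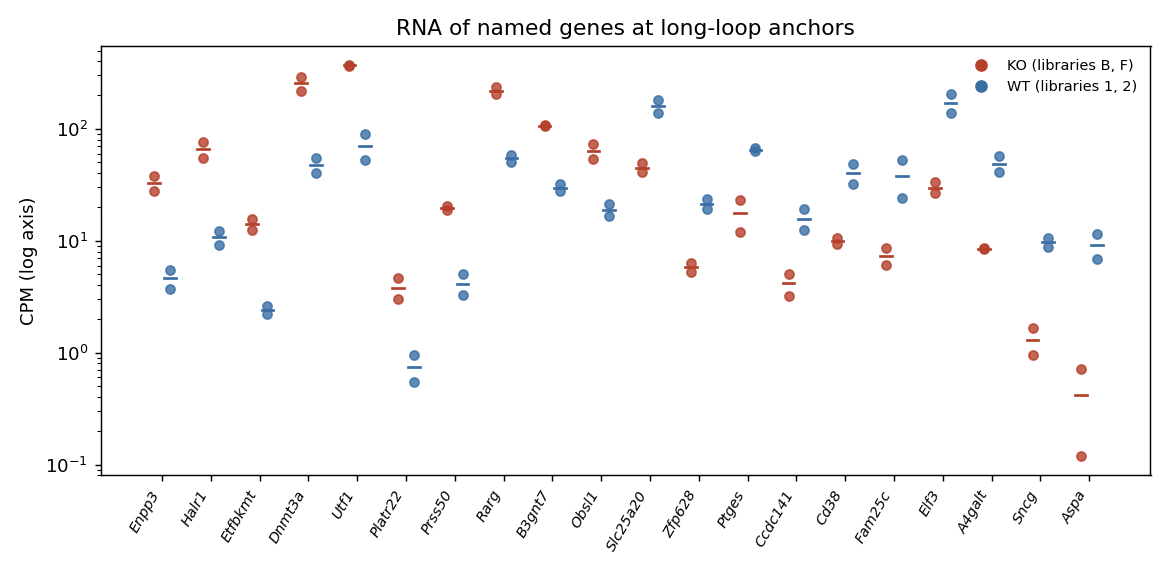
CPM (log axis) of the 20 named genes at long-loop anchors in each library, KO left of WT for each gene, with points for libraries and bars for group means. The 10 genes on the left are higher and the 10 on the right lower in KO. All were chosen by a rule that required groups that do not overlap.

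In the strongest blocks the counts of called genes were near the 8.3% called over all tested genes. Of 12 tested genes in the chromosome 4 zinc finger block edgeR called 0, and of 15 tested histone-block genes 1 was higher and 0 lower. The histone block had 43 gene starts, so most of its genes were not tested. Many of these had counts near 0, such as H3c2 with 0 in every library. Zfp980 had 55.6 and 99.9 CPM in KO, against 42.4 and 21.05 CPM in WT (log2 fold change 1.29 ± 0.41 SE, FDR 0.0921). Its groups did not overlap, and DESeq2 gave an FDR of 0.0190. Zfp987 had 32.5 and 48.1 CPM in KO, against 33.7 and 19.4 CPM in WT, and Zfp534 had 36.6 and 60.8 CPM in KO, against 38.1 and 27.1 CPM in WT, so that the groups overlapped for both. The histone gene that rose was H2ac10, with 28 and 17 counts in KO and 2 and 3 counts in WT (FDR 0.0276), a call lost without KO library B (FDR 0.152) or WT library 1 (FDR 0.0557). The sources used here do not say how RNA reads that match several near-identical zinc finger or histone genes were counted, so these values are uncertain. In the chromosome 6 block Phc1, a subunit of Polycomb repressive complex 1, had 928 and 890 CPM in KO, against 348 and 339 CPM in WT (1.40 ± 0.25, FDR 0.0145). At the other side of that block the tetraspanin gene Cd9 had 162 and 141 CPM in KO, against 328 and 423 CPM in WT (-1.31 ± 0.25, FDR 0.0198).

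Among hub genes, Mkrn1 had 1362 and 1226 CPM in KO, against 495 and 637 CPM in WT (log2 fold change 1.19 ± 0.27 SE, FDR 0.0343). Zfp57 had 649 and 883 CPM in KO, against 510 and 544 CPM in WT, which did not pass the test (FDR 0.264). The core gene Pou5f1 had 1755 and 1542 CPM in KO, against 1192 and 2006 CPM in WT (FDR 0.951), and Nanog had 619 and 571 CPM in KO, against 781 and 772 CPM in WT (FDR 0.387).

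Genes at both ends were compared for the loops in which both could be tested. For 251 long loops the nearest start at each end belonged to a tested gene. In 209 of them neither gene was called, in 38 one was, and in 4 both were, where 7.24% of genes at long-loop anchors and 8.3% of all tested genes were called. Both were higher in KO for Phc1 with Etfbkmt (26.8 Mb), Platr10 with Mcl1 (20.01 Mb) and Mkrn1 with Halr1 (12.7 Mb). The fourth joined Elf3, lower in KO, with Platr22, higher in KO, over 1.44 Mb. Each of the 4 loops had 2 KO PETs, and both genes were lower for 0 loops.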

How the data were processed

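RNA-seq gene counts and HiChIP loop counts were used as the authors deposited them. Gene counts are whole reads per Ensembl gene, 1 file per library, and loop counts are PETs per anchor pair, 1 pooled file per genotype, not normalised. The submitters' processing notes name HiC-Pro 2.11.4, HISAT2 2.1.0, HTSeq 0.9.1 and DESeq2 1.18.1, with mm10 as the build. The sources used here do not give the annotation release, strand setting, loop caller, peak source or filters. With the strand setting unknown, a gene and an overlapping antisense gene can share reads. Counts in genes were 34.5% to 36.0% of the records of a library, and records outside genes entered neither library sizes nor tests.

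Loops were chosen with Python 3.11.15 and pandas 2.3.3. The loops, gene lists, named items and tests were chosen with earlier results of these data known, and blocks, shared 20-base words and 6 alternatives were added after the data were seen. Gene starts came from the RefSeq promoter table, which covers 81.8% of 21376 protein-coding genes off chromosome 18, and genes on chromosome 18 were not used for starts. A start was placed at an anchor within a margin of 2500 bases. A WT match required both anchors to overlap by 1 base or more. Intervals are exact binomial (Clopper-Pearson) or exact Poisson at 95%, for counting error only. PETs are not known to be independent molecules.

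Expression was tested over all 15517 genes that passed filterByExpr with edgeR 4.0.16 in R 4.3.3 (TMM, quasi-likelihood F-test on genotype alone, Benjamini-Hochberg, FDR 0.05). CPM are counts scaled by the TMM library size. Replicates are called biological in the labels, without saying whether they were separate cultures, so p-values measure the spread between these libraries. KO library letters B and F cannot be tied to replicate numbers. Alternatives used RLE factors, library totals, other filters, DESeq2 1.42.0, limma 3.58.1 and leaving out each library. Promoters were aligned locally with Biopython 1.88.

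Named loops are the 10 with the most PETs, the 5 longest and up to 10 with a WT match. Named anchors are the 8 with the most long loops. Named genes are starts at these anchors, list members, Klf4, and at most 10 higher and 10 lower genes by absolute log2 fold change past the FDR, with a mean of 2 CPM or more and groups that do not overlap, without predicted genes, Rik clones and pseudogenes. Genes of blocks and of loops with both ends called were named after their values were seen.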

Additional observations from a re-analysis of the deposited data

How the results depend on the processing

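The number of loops follows the limits that define them. There were 166 loops (767 PETs) at 3 or more PETs, 36746 (38212 PETs, median span 10.5 Mb) at 1 or more, 518 (1157 PETs, 6.67 Mb) at 2 Mb, 296 (625 PETs, 15.0 Mb) at 5 Mb, and 1817 (4529 PETs) with anchors within 5000 bases merged. At the WT depth in all PETs 16.4 were expected. The share with a WT PET was 5.33% and 9.41% with both anchors within 5000 and 25000 bases, 1.36% for WT pairs of 2 or more PETs and 12.7% for KO loops of 3 or more. Gene starts lay at 51.2% of anchors with no margin, 68.2% with 10000 bases, 49.4% for protein-coding genes and 67.6% counting either gene end, the last an alternative added after the data were seen. Genes called at anchors of loops of 3 or more PETs were 7 higher and 8 lower. With no filter they were 0 and 0. Leaving out each library gave 15 to 64 higher and 15 to 56 lower. The cause was not tested, except that higher limits leave fewer loops. Over 64 named genes, 570 of 640 values kept their direction and side of the threshold, 32 lost a call, 7 gained one and 31 changed sign. All 31 came from leaving out 1 library, in 20 genes, and 0 had a call in either fit. Over these fits the log2 fold change ran -0.20 to 0.40 for Fgf4, -0.024 to 0.39 for Gm14393, -1.07 to 0.64 for H1f1, -0.17 to 0.21 for H1f2, -1.08 to 1.60 for H1f3, -1.49 to 0.53 for H3c10, -0.31 to 0.20 for H4c9, -0.29 to 0.43 for Pou5f1, -0.31 to 0.25 for Prmt1, -0.32 to 0.90 for Rex2, -0.25 to 0.27 for Rpl13a, -0.68 to 0.12 for Rpl23, -0.72 to 0.17 for Rpl27, -0.26 to 0.61 for Rps24, -0.19 to 0.29 for Sephs2, -0.52 to 0.023 for Stag1, -0.31 to 0.31 for Zfp36, -0.23 to 0.10 for Zfp985, -0.79 to 0.0064 for Zfp988 and -0.087 to 0.094 for Zranb3.

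No paired analysis was possible because the KO columns carry letters (B, F) and no replicate number. Leaving out loops whose anchors share genomic sequence was not run, as no genome was used here. The WT pool's depth limits what an absent match can show.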
